A study of Mus musculus with 6 samples.

Results

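The mitochondrial ribosomal protein genes were the protein-coding genes of the count table whose identifier maps to a symbol of Mrpl or Mrps followed by a digit, which gave 78 of 48795 genes. They comprised 49 Mrpl genes, named for the large ribosomal subunit, and 29 Mrps genes, named for the small subunit. The mitochondrial ribosome translates the messages of mitochondrial DNA, which code for core subunits of the respiratory chain and of ATP synthase. Its ribosomal RNAs are transcribed from mitochondrial DNA, whereas its proteins are encoded in the nucleus, made in the cytosol and imported. Some of these proteins have homologues in bacterial ribosomes and others occur only in mitochondria. In skeletal muscle, which makes much of its ATP by respiration, expression of these genes is known to go with that of the nuclear respiratory chain genes under factors such as NRF1, the ETS factor GABP and YY1.

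The study compared quadriceps muscle of male MERKO mice, whose genotype is given as muscle-specific Er_alpha-/-, with quadriceps of male wildtype mice, called control here. All mice were C57BL/6 and 20 weeks old, and 3 RNA sequencing libraries were made per genotype. The driver of the muscle-specific deletion is not given in the sources used here, and the labels do not say whether each library came from a separate animal, so p-values measure the spread between libraries, which may be technical. Esr1, the gene of the estrogen receptor ERα, averaged 7.88 ± 1.39 CPM (counts relative to library size) in MERKO, against 30.1 ± 4.59 CPM in control (n = 3 each, ± SD), a log2 fold change of -1.95 (edgeR quasi-likelihood test, adjusted p = 0.0262). CPM values include TMM factors for library composition.

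The libraries held between 14935532 counts in control 2 and 44282448 in control 3. The 8 skeletal muscle markers were all present, from 212 CPM of Mb in control 3 to 81221 CPM of Myh4 in MERKO 2. Some features of the libraries touch what follows. MERKO 1 and control 1 stood apart in slow-fibre genes, since Myh7, the slow myosin heavy chain, had 160, 1.77 and 2.12 CPM in MERKO 1 to 3 and 185, 6.00 and 8.07 CPM in control 1 to 3. A ribosomal RNA gene model took 6.19%, 32.4% and 19.2% of all counts in MERKO 1 to 3, against 11.1%, 27.7% and 0.0433% in control 1 to 3. The 7 tested adipocyte markers summed to between 112 and 144 CPM in MERKO and between 145 and 476 CPM in control. The most abundant of them was Fabp4, at a log2 fold change of -0.37, and the other 6 markers were between -3.01 and -2.07, all with an unadjusted p under 0.05. The 8 tendon markers summed to between 84.1 and 413 CPM in MERKO and between 29.8 and 85.1 CPM in control, and the 7 nerve markers to between 39.4 and 61.9 CPM in MERKO and between 27.6 and 36.5 CPM in control. Of the 8 tendon markers 7 had a log2 fold change above 0, the median was 2.60, and 6 had an unadjusted p under 0.05. All 7 nerve markers had a log2 fold change above 0, with a median of 0.52, and 3 had an unadjusted p under 0.05. Over all tested genes 7.04% had an unadjusted p under 0.05. In these 3 lists 0 markers passed the adjusted threshold of the edgeR test, against 0.00734% of all tested genes. None of their markers was at 0 in any library. The part of these tissues in the values below was not tested, and in bulk muscle fewer cells of a type and less RNA per cell cannot be told apart.

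The members lie on 17 chromosomes, with 11 on chromosome 11 and 8 on chromosome 17, and many start close to a gene on the opposite strand. In 33 of the 78 members (42.3%) the annotated start lies within 1 kb of the start of a gene on the opposite strand, compared with 2368 of 21772 protein-coding genes in the table (10.9%). The distance is negative where the 5′ ends overlap, as in 15 of the 33, and whether such genes share a promoter was not tested. Mrps12 is paired with Sars2, the mitochondrial seryl-tRNA synthetase, at a distance of 172 bp. Mrpl32 is paired with the proteasome gene Psma2 at 75 bp, and Mrpl43 with Twnk, the mitochondrial DNA helicase, at -779 bp. One pair consists of members of both subunits, Mrps11 and Mrpl46. In RefSeq (GRCm38.p6), 69 members had 75 promoter windows of 250 bases before to 50 bases after the start. These were searched on both strands beside the 21262 windows of all protein-coding genes in the same table, called all windows here. The string CCGGAAG, a core site of ETS factors, occurred in 34.7% of member windows and in 11.6% of all windows. GCATGCG, the core of the NRF1 site, was in 10.7% of member windows and 4.44% of all windows, and GATGGCG, a YY1 core, was in 10.7% and 4.29%. At least 1 of these 3 strings was in 48.0% of member windows and in 18.4% of all windows. The SP string GGGCGG was in 52.0% of member windows and 46.2% of all, and AAGGTCA, the half-site of estrogen-related receptors, in 5.33% and 4.08%. The palindromic estrogen response element GGTCANNNTGACC was in 0 member windows and in 0.0517% of all windows. Member windows also held more CpG, with a median of 7 per 100 bases against 4.33 in all windows, at a GC content of 58.7% against 56.3%. These matches describe letters in a window and not bound sites.

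**Figure D1:**
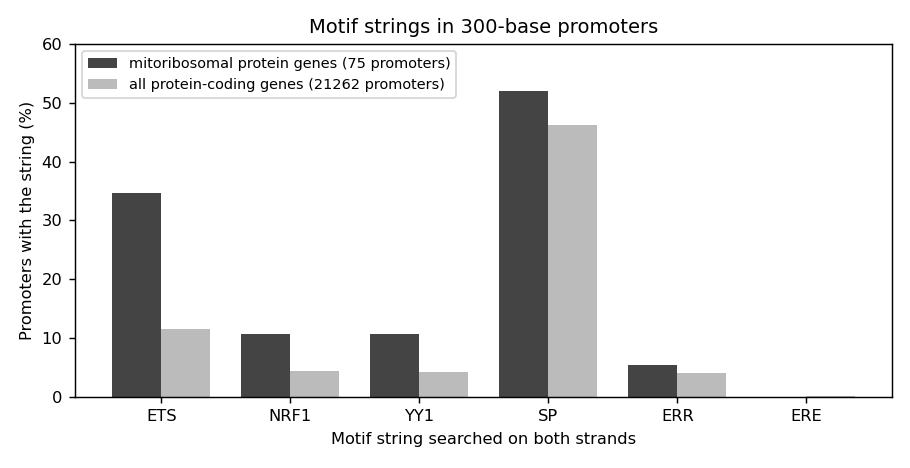
Percent of RefSeq promoter windows that hold each string on either strand, for the 75 windows of the mitochondrial ribosomal protein genes and for all 21262 windows of protein-coding genes. The ETS string is in 34.7% of member windows and 11.6% of all windows, and the SP string differs least in proportion, at 52.0% and 46.2%, apart from the estrogen response element, which no member window holds.

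The windows of 4 members follow, 5′ to 3′ on the strand of the gene, with the ETS, NRF1 or YY1 string in capitals. The first belongs to Mrps14 (chr1:160194965-160195264, plus strand) and the second to Mrpl32 (chr13:14612988-14613287, minus strand), the members with the lowest p in each subunit. Mrpl42 (chr10:95501900-95502199, minus strand) had the highest level per kb of its principal transcript. Mrps12 (chr7:28741772-28742071, minus strand) shows an ETS string at the start site. The window of Mrps14 holds none of the 3 strings. That of Mrpl32 holds the NRF1 core in 3 places, in 2 of which it overlaps its own reverse complement as CGCATGCG.
Mrps14: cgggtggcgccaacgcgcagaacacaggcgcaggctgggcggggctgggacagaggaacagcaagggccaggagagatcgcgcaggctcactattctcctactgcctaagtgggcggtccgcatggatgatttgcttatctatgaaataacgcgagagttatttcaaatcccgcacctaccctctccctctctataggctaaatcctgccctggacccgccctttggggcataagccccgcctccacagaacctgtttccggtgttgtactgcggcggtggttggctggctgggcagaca
Mrpl32: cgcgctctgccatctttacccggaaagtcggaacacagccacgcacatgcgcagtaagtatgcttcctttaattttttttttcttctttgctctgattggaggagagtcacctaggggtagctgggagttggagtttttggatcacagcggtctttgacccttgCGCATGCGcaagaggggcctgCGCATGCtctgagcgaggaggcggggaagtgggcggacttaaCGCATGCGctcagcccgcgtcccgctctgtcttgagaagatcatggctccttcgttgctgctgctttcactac
Mrpl42: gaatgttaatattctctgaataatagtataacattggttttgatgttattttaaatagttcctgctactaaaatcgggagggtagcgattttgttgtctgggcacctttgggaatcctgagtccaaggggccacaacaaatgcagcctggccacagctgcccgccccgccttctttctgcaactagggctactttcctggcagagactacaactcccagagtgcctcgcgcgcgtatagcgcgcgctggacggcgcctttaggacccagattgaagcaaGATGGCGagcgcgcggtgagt
Mrps12: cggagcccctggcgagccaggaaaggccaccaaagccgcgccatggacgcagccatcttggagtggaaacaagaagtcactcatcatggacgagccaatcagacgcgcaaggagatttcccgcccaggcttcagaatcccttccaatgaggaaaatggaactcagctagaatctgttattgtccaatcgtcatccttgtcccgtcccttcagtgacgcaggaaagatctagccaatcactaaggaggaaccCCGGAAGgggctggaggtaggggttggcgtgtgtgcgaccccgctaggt

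Levels of the members differed more between genes than between libraries. Per kb of the principal transcript, control levels of the large subunit genes ran from 2.75 to 173 CPM per kb with a median of 16.9, a 62.9-fold range, and those of the small subunit genes from 2.64 to 80.8 CPM per kb with a median of 12.3. Mrpl42, a protein found only in mitochondrial ribosomes, was highest at 155 ± 11.3 CPM per kb in MERKO and 173 ± 19.0 CPM per kb in control. It was followed in control by Mrpl30 at 62.4 CPM per kb and Mrpl54 at 54.7 CPM per kb, whose SDs of 7.12 and 6.76 CPM per kb leave their order unresolved. Mrpl19, Mrpl17 and Mrpl47 were the lowest large subunit genes, at 2.75, 3.13 and 4.40 CPM per kb in control. Among small subunit genes Mrps21 led at 75.03 ± 7.18 CPM per kb in MERKO and 80.8 ± 6.39 CPM per kb in control, ahead of Mrps28 at 39.5 and Mrps18a at 37.3 CPM per kb in control. The lowest were Mrps25, Mrps35 and Mrps6, at 2.64, 3.30 and 3.49 CPM per kb in control. Annotated lengths weigh on these levels, since the transcripts of Mrps25, Mrpl17 and Mrpl19 are 6073, 7300 and 5000 bases long. Counts are per gene, whereas the length is that of the principal transcript. This length is 666 bases for Mrpl42, against 3682 bases in all its exons, and 604 against 825 bases for Mrpl54. The order of the members and the fold range therefore depend on the length chosen.

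Of the 78 members, 77 passed the filter on low counts. Mrpl53, a protein specific to the mitochondrial large subunit, was listed at 0 counts in all 6 libraries. In the annotation 88.0% of its exon bases are shared with other genes on the same strand, Ccdc142os and Gm42688, so its level is not known from this table. The variation over the 6 libraries was modest, with a coefficient of variation between 5.13% and 29.3% in the large subunit and between 2.39% and 24.6% in the small subunit. The steadiest member was Mrps25, at 16.4, 16.9 and 16.1 CPM in MERKO 1 to 3 and 16.4, 15.9 and 15.9 CPM in control 1 to 3, although 69.8% of its exon bases overlap Nr2c2. The most variable was Mrpl14, at 25.1, 12.3 and 17.3 CPM in MERKO 1 to 3 and 25.2, 14.7 and 16.5 CPM in control 1 to 3. Library 1 was the highest and library 2 the lowest in both groups.

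**Figure D2:**
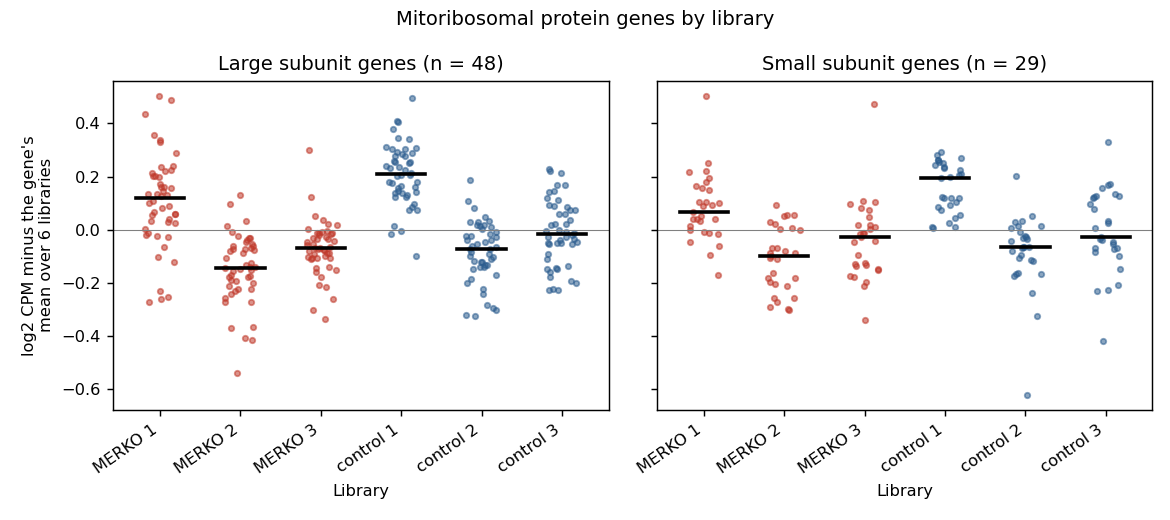
Levels of the 77 tested members in each library, as log2 deviation from the gene's mean over the 6 libraries, for large and small subunit genes apart with MERKO libraries left of control libraries. The median of the large subunit genes is 0.12, -0.14 and -0.07 in MERKO 1 to 3, against 0.21, -0.07 and -0.02 in control 1 to 3, so library 1 is the highest of its group.

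No member passed the threshold between MERKO and control muscle. The count was 0 of 77 (edgeR quasi-likelihood test, adjusted p under 0.05), against a background of 0.00734% of all 13628 tested genes, which is Esr1 alone. With DESeq2 it was also 0 of 77, against 0.165% of the genes that it tested. At an unadjusted p under 0.05 the count was 3 of 77 members (3.90%), namely Mrps14, Mrpl32 and Mrps10, against 7.04% of all genes. The confidence intervals say more about the size of the differences than this count does, but they too rest on the spread between libraries. Their width differs between the sets, with a median standard error on the log2 scale of 0.130 in members and 0.168 over all tested genes. For 77 of 77 members the 95% confidence interval of the fold change lay within 2-fold either way, against 78.6% of all tested genes, and for 70 of 77 (90.9%) within 1.5-fold, against 54.1%. The 7 members with wider intervals were Mrps6, Mrpl14, Mrps9, Mrpl3, Mrpl55, Mrpl47 and Mrps33.

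The fold changes lay a little below 0 in both subunits. In MERKO relative to control, 58 of 77 members (75.3%) had a log2 fold change below 0, against 47.9% of all tested genes. The large subunit had 39 of 48 below 0 and a median of -0.05, the small subunit 19 of 29 and a median of -0.06, and all tested genes a median of 0.01. A narrower count left out members whose exons overlap another gene or whose symbol is carried by an annotated pseudogene. Pseudogene copies under other names were not searched for. In that count 13 of 17 small subunit genes lay below 0 with a median of -0.10, and 20 of 26 large subunit genes with a median of -0.06. Single members ranged from -0.30 to 0.44. The summed level of the large subunit genes was 1351, 1126 and 1195 CPM in MERKO 1 to 3 and 1446, 1181 and 1250 CPM in control 1 to 3, or 1224 ± 115 CPM in MERKO, against 1293 ± 137 CPM in control (n = 3 each, ± SD). That of the small subunit genes was 616, 546 and 569 CPM in MERKO 1 to 3 and 660, 560 and 590 CPM in control 1 to 3, or 577 ± 35.8 CPM in MERKO, against 603 ± 51.2 CPM in control. For both subunits the groups overlapped, and the difference in means was smaller than the SD of either group, in each of which library 1 was the highest. The ratio of the 2 sums was 2.12 ± 0.067 in MERKO and 2.14 ± 0.045 in control, so large and small subunit messages kept nearly the same proportion in every library, between 2.06 and 2.19.

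The number of members below 0 and the size of the medians moved with the libraries kept. Control 1 held the highest value of the 6 libraries in 48 of 77 members, and MERKO 1 in 13. MERKO 2 held the lowest value in 29 members and MERKO 3 in 18. Without control 1, 33 of 77 members lay below 0 and the medians were 0.01 in the large and 0.03 in the small subunit. Without MERKO 2, 43 of 77 lay below 0 and the medians were -0.02 and -0.01. Without MERKO 1, 68 of 77 lay below 0 and the medians were -0.15 and -0.12. The medians were also farther from 0 without control 2 (-0.11 in both subunits) and without control 3 (-0.11 and -0.08), and without MERKO 3 they were -0.05 and -0.04. Without library 1 of both groups, which left out the libraries high in slow-fibre genes, 51 of 77 lay below 0 with medians of -0.06 and -0.04.

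**Figure D3:**
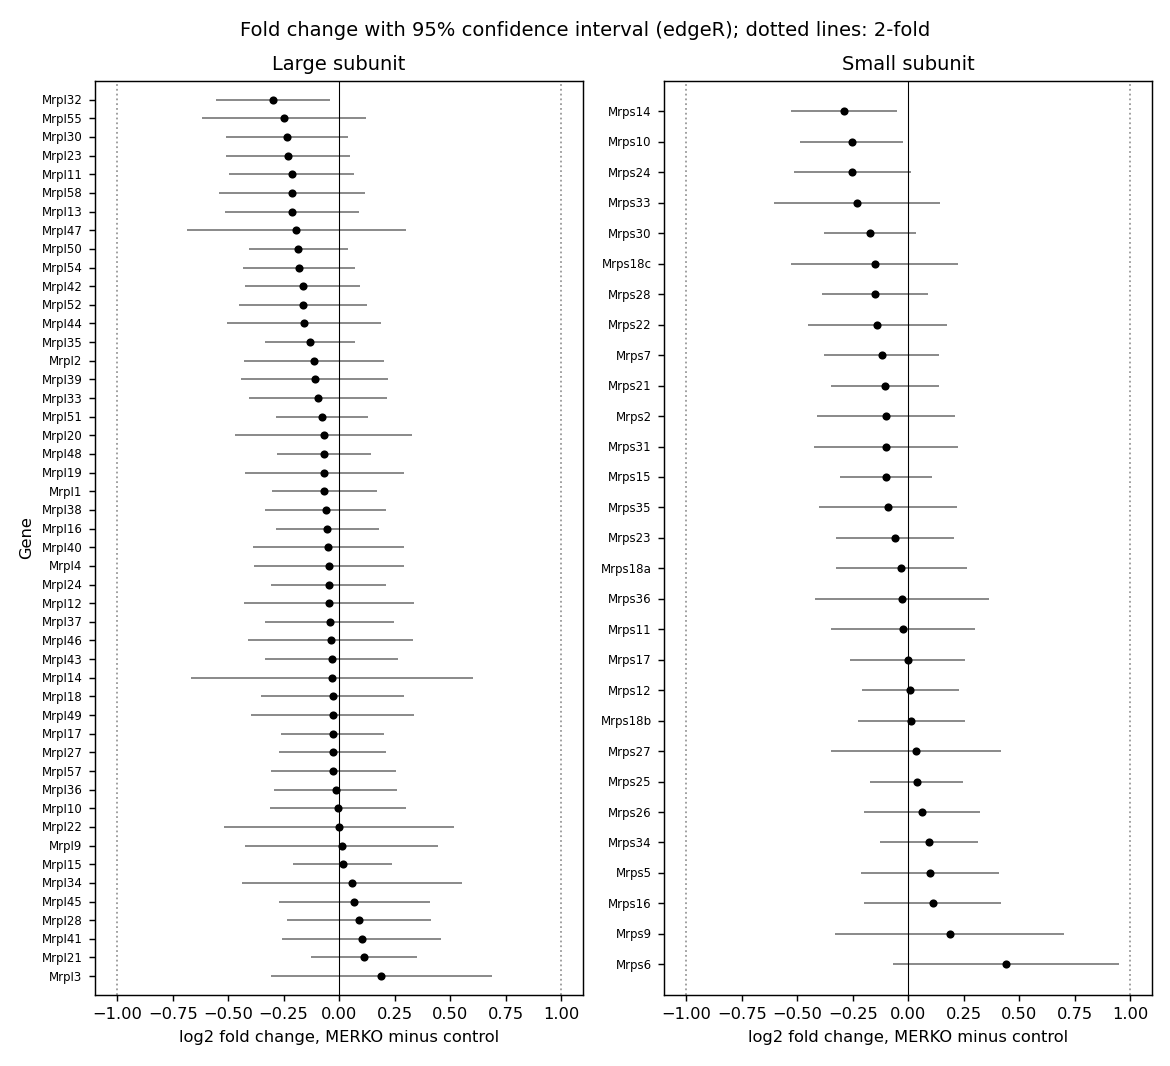
Log2 fold change of MERKO over control with its 95% confidence interval for each of the 77 tested members, ordered within the large and the small subunit. The values run from -0.30 (Mrpl32) to 0.44 (Mrps6), and the dotted lines mark 2-fold either way.

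In 6 of 77 members (7.79%) all 3 MERKO libraries lay below all 3 control libraries, against 7.10% of all tested genes. In 0 members all 3 MERKO libraries lay above, against 6.17% of all genes. Both shares are read against these backgrounds, and the first is close to its own. Mrps14 (chr1:160195215-160202170, plus strand, GENCODE M21 on GRCm38), a homologue of a bacterial protein in the head of the small subunit, had 22.3, 19.4 and 19.3 CPM in MERKO 1 to 3, against 26.7, 23.3 and 24.6 CPM in control 1 to 3. The highest MERKO library was below the lowest control library. Its log2 fold change was -0.29 ± 0.10 (SE), with an adjusted p of 0.680 in the edgeR quasi-likelihood test, the lowest of the 77 members. Mrpl32 (chr13:14608184-14613165, minus strand), a large subunit protein whose precursor is cut by the m-AAA protease before it joins the ribosome, as shown in yeast and mouse, had 14.2, 14.4 and 16.7 CPM in MERKO 1 to 3, against 19.2, 16.9 and 19.4 CPM in control 1 to 3. MERKO 3 and control 2 were nearly level, so the groups were separated by little. The log2 fold change was -0.30 ± 0.11 (edgeR, adjusted p = 0.683). Psma2, the gene opposite Mrpl32, was at -0.19 ± 0.09 (edgeR, adjusted p = 0.713).

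Mrps10 (chr17:47368887-47381417, plus strand), another small subunit head protein with a bacterial homologue, had 15.4, 15.5 and 14.3 CPM in MERKO 1 to 3, against 16.6, 18.9 and 18.6 CPM in control 1 to 3. Here control 1 was the lowest control library, unlike in most members. The log2 fold change was -0.26 ± 0.10 (edgeR, adjusted p = 0.683). Mrps30 had 22.5, 20.1 and 21.1 CPM in MERKO 1 to 3, against 24.2, 23.0 and 24.6 CPM in control 1 to 3, and its log2 fold change was -0.17 ± 0.09. Despite its symbol, its protein sits in the large subunit of the mammalian mitochondrial ribosome, as does that of Mrps18a. Counting both with the large subunit left the medians at -0.05 and -0.06. The other members whose groups did not overlap were Mrpl35 and Mrps15, which have bacterial homologues in the large and small subunit and were at -0.13 ± 0.09 and -0.10 ± 0.09.

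**Figure D4:**
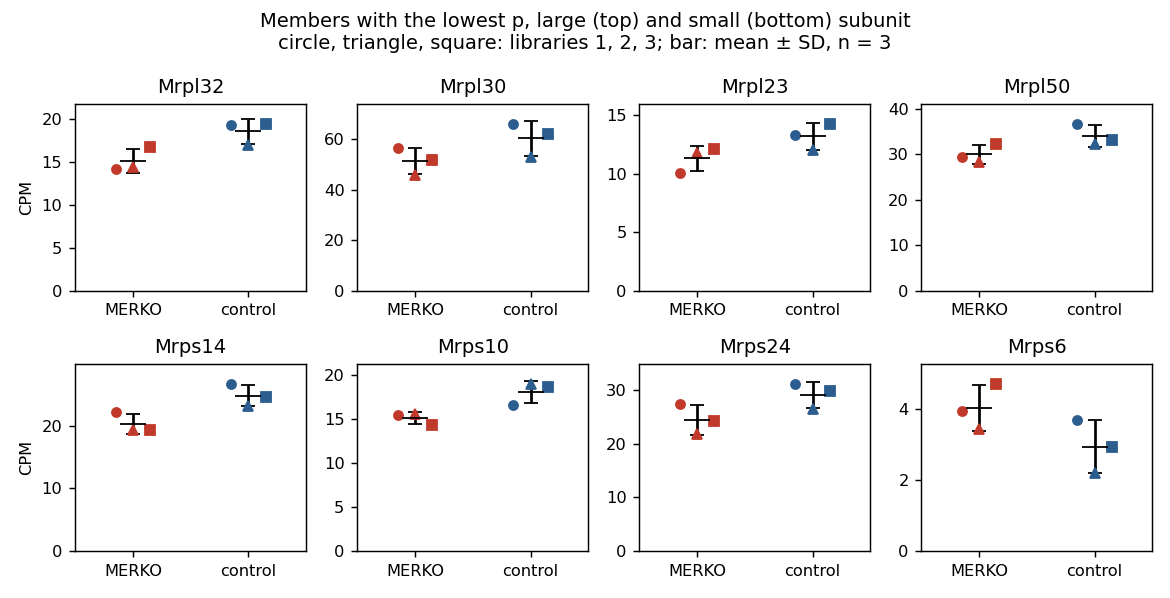
CPM of the members with the lowest unadjusted p in each library, with MERKO left of control, points for libraries and bars for the mean and SD of 3 libraries. Mrps14, Mrpl32 and Mrps10 do not overlap between groups, and 0 members reached an adjusted p under 0.05.

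Among the remaining large subunit genes, those with homologues in bacteria included several near functional centres of the ribosome. Mrpl11, whose bacterial homologue lies in the centre that binds translational GTPases, averaged 21.7 ± 2.37 CPM in MERKO, against 25.2 ± 2.98 CPM in control, with overlapping groups. Mrpl12, the stalk protein that also binds mitochondrial RNA polymerase, had 54.3, 35.5 and 47.1 CPM in MERKO 1 to 3 and 54.95, 43.7 and 43.1 CPM in control 1 to 3. Its spread of 9.48 CPM in MERKO exceeded the difference of the means, and its log2 fold change was -0.05 ± 0.17. Mrpl23, whose bacterial homologue lies at the end of the peptide exit tunnel, averaged 11.3 ± 1.07 CPM in MERKO, against 13.2 ± 1.15 CPM in control. Mrpl30 had 56.5, 45.9 and 51.7 CPM in MERKO 1 to 3, against 66.2, 52.8 and 62.3 CPM in control 1 to 3. The groups overlapped, since MERKO 1 was above control 2 (log2 fold change -0.23 ± 0.12). Mrpl13, which has a bacterial homologue, was at -0.21 ± 0.13 and Mrpl47 at -0.19 ± 0.21, and 24.2% of the exon bases of Mrpl47 overlap Actl6a and Ndufb5. Mrpl17 and Mrpl19, of the same class, were close to 0, at -0.03 ± 0.10 and -0.07 ± 0.16.

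In the large subunit 9 of 48 genes were above 0. Mrpl3, a conserved protein near the peptidyl transferase centre whose human variants are known in cardiomyopathy, had 36.7, 22.9 and 24.9 CPM in MERKO 1 to 3 and 31.6, 20.7 and 22.1 CPM in control 1 to 3. Library 1 stood above the others in both groups, and the log2 fold change was 0.19 ± 0.22. Mrpl21 averaged 19.1 ± 1.84 CPM in MERKO, against 17.7 ± 0.53 CPM in control (log2 fold change 0.11 ± 0.10). Mrpl41, a mitochondria-specific protein, was at 0.10 ± 0.16, and Mrpl45, which lies at the exit tunnel and helps to hold the ribosome at the inner membrane, was at 0.07 ± 0.15. Without MERKO 1 the values of Mrpl3, Mrpl41 and Mrpl45 were -0.06, -0.06 and -0.04.

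The bacterial-type and mitochondria-specific members had similar values. Members outside a fixed list of bacterial-type symbols were counted as mitochondria-specific, without a check of protein sequences. This class therefore includes Mrps18a and Mrps18b, although they are paralogues of the bacterial S18 protein. Subunits follow the symbols, so Mrps18a and Mrps30 are counted in the small subunit here. The 29 bacterial-type large subunit genes had 22 below 0 and a median of -0.05, and the 19 tested mitochondria-specific ones 17 below 0 and a median of -0.07. In the small subunit the 16 bacterial-type genes had 11 below 0 and a median of -0.10, and the 13 mitochondria-specific genes 8 below 0 and a median of -0.03. Of the mitochondria-specific large subunit genes, Mrpl42 had 106, 94.4 and 108 CPM in MERKO 1 to 3 and 123, 101 and 122 CPM in control 1 to 3, and MERKO 1 and 3 lay between the control libraries. Mrpl50, Mrpl54 and Mrpl55, also outside the list of bacterial-type symbols, were at -0.18 ± 0.10, -0.18 ± 0.11 and -0.25 ± 0.16. Mrpl44, which has a fold like that of RNase III and whose human variants are known in cardiomyopathy, was at -0.16 ± 0.15. Mrpl58, also known as ICT1, a peptidyl-tRNA hydrolase that frees stalled ribosomes and is itself a ribosomal subunit, had 16.97, 12.04 and 15.9 CPM in MERKO 1 to 3 and 19.2, 16.3 and 16.9 CPM in control 1 to 3. Its groups overlapped through MERKO 1, at a log2 fold change of -0.21 ± 0.14.

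In the small subunit, Mrps24 had 27.3, 21.7 and 24.2 CPM in MERKO 1 to 3, against 31.1, 26.4 and 29.9 CPM in control 1 to 3, and the groups overlapped through MERKO 1 (log2 fold change -0.25 ± 0.11). Mrps12, whose bacterial homologue lies at the decoding centre, had 16.8, 17.6 and 16.8 CPM in MERKO 1 to 3 and 18.1, 16.3 and 16.5 CPM in control 1 to 3. Its log2 fold change was 0.01 ± 0.10 with a 95% confidence interval from -0.21 to 0.23, and Sars2, the gene opposite, was at -0.12 ± 0.15. The 3 paralogues of the bacterial S18 protein had log2 fold changes of -0.03 ± 0.13 (Mrps18a), 0.01 ± 0.11 (Mrps18b) and -0.15 ± 0.16 (Mrps18c). Mrps16 and Mrps22, in which human variants cause mitochondrial disease, were at 0.11 ± 0.13 and -0.14 ± 0.14. Mrps28, Mrps21 and Mrps35 were at -0.15 ± 0.10, -0.11 ± 0.11 and -0.09 ± 0.14, and Mrps33 at -0.23 ± 0.16. Mrps34, which in mice is needed for a stable small subunit, was at 0.09 ± 0.10, with 77.8% of its exon bases overlapping Mapk8ip3 and Nme3. Mrps36, which is also known as a subunit of the 2-oxoglutarate dehydrogenase complex, averaged 10.6 ± 2.02 CPM in MERKO, against 10.95 ± 1.66 CPM in control.

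Mrps6 (chr16:92058270-92112227, plus strand), a small subunit protein with a bacterial homologue, had the highest log2 fold change of the 77 members. It had 3.95, 3.45 and 4.72 CPM in MERKO 1 to 3, against 3.70, 2.21 and 2.94 CPM in control 1 to 3. The groups overlapped, since MERKO 2 was below control 1, and the log2 fold change was 0.44 ± 0.22 (edgeR quasi-likelihood test, adjusted p = 0.713). In the annotation 19.9% of its exon bases are shared with Slc5a3, a myo-inositol transporter on the same strand, and Gm49711. Slc5a3 averaged 8.77 ± 2.86 CPM in MERKO, against 5.81 ± 0.98 CPM in control, at a log2 fold change of 0.62 (edgeR, adjusted p = 0.683). How reads were divided between Mrps6 and Slc5a3 was not tested. Mrps9 had 30.8, 20.7 and 19.2 CPM in MERKO 1 to 3 and 26.4, 20.0 and 16.2 CPM in control 1 to 3, so that library 1 was high in both groups, and its value was next to that of Mrpl3 (log2 fold change 0.19 ± 0.22).

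The members shared an order of the libraries. Within MERKO, library 1 was the highest in 57 of 77 members, within control in 62, and in both groups in 50. The 81 tested nuclear genes of respiratory chain and ATP synthase subunits, compared after the values of the members were seen, followed the libraries in the same order with a wider swing. Their median deviation was 0.29, -0.25 and -0.08 in MERKO 1 to 3, compared to 0.33, -0.18 and -0.08 in control 1 to 3 on the log2 scale, and their median log2 fold change was -0.02, with 47 of 81 below 0. The small subunit members deviated by 0.07, -0.10 and -0.03 in MERKO 1 to 3 and by 0.19, -0.06 and -0.03 in control 1 to 3. The members made up 11.9% ± 1.48 of the summed CPM of the nuclear respiratory genes in MERKO and 12.6% ± 1.46 in control. The 78 tested cytosolic ribosomal protein genes kept another order. All 78 had a log2 fold change below 0, against 47.9% of all tested genes, with a median of -0.23. An unadjusted p under 0.05 was reached by 24 of them, against 7.04% of all tested genes. In the edgeR test 0 of the 78 passed the adjusted threshold, against 0.00734% of all tested genes. Their sums were 6343, 6099 and 6434 CPM in MERKO 1 to 3, against 7389, 6570 and 8315 CPM in control 1 to 3. Control 3, the library with the lowest share of the ribosomal RNA model, was the highest in 77 of the 78, whereas among the members it was the highest in 8 of 77. The part of that library's composition in the cytosolic values was not tested.

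**Figure D5:**
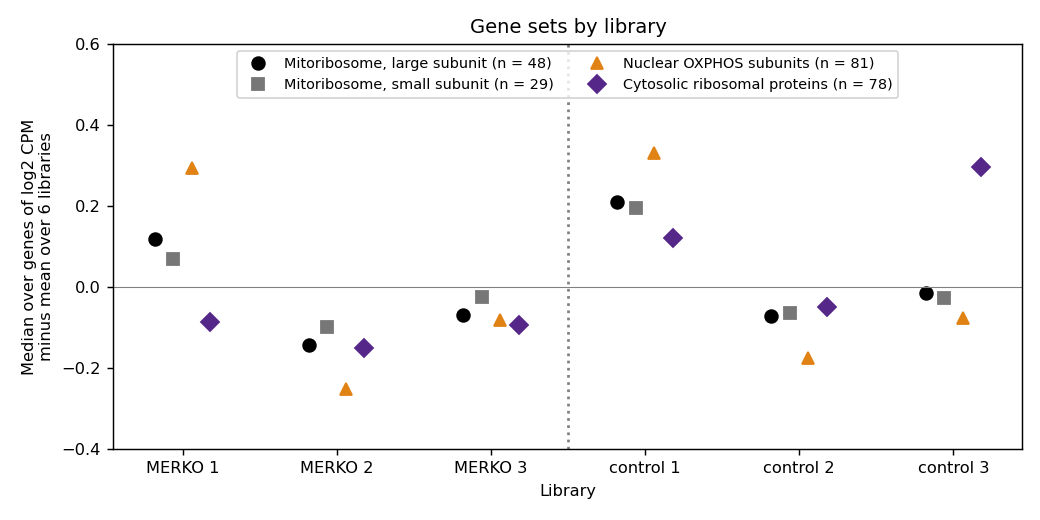
Median log2 deviation from the mean of the 6 libraries for the large and small subunit members, the nuclear respiratory chain genes and the cytosolic ribosomal protein genes, with MERKO libraries left of control libraries. Library 1 is the highest of its group for the members and the respiratory genes, and control 3 is the highest for the cytosolic ribosomal protein genes.

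Genes that work with the mitochondrial ribosome also had no called differences. The edgeR test called 0.00734% of all tested genes, so counts of 0 in lists of this size are near the background. Of 5 mitochondrial ribosomal proteins with other symbols, 0 passed the edgeR threshold and 3 were below 0, with Chchd1 at -0.27 ± 0.11 and Aurkaip1 at -0.17 ± 0.09, both small subunit proteins. Of 27 genes for ribosome assembly and rRNA modification, 0 passed, 18 were below 0 and the median was -0.06. Malsu1, an assembly factor of the large subunit, averaged 24.9 ± 2.08 CPM in MERKO, against 28.8 ± 0.49 CPM in control, and Fastkd2, which binds the large rRNA, averaged 21.5 ± 1.38 CPM in MERKO, against 23.95 ± 0.58 CPM in control. Of 16 translation factors and regulators, 0 passed, 11 were above 0 and the median was 0.09. Slirp, which stabilises mitochondrial messages together with Lrpprc, was at -0.33 ± 0.13, and the initiation factor Mtif3 was at -0.18 ± 0.12. Of 10 transcription factors linked to nuclear genes of mitochondria, 0 passed and 7 were above 0. The coactivator Ppargc1b was at 0.55 ± 0.29 and Gabpb1, a GABP subunit, at 0.23 ± 0.15. The mitochondrial rRNAs mt-Rnr1 and mt-Rnr2, of the small and large subunit, averaged 9087 ± 4959 and 52945 ± 16661 CPM in MERKO and 7287 ± 459 and 51489 ± 4548 CPM in control. MERKO 3 was the highest library for both rRNAs, at 14811 and 70932 CPM. Of the 28 members with a tested gene on the opposite strand within 1 kb, 0 had a partner that passed the threshold.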

How the data were processed

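RNA from quadriceps was sequenced in 6 libraries, 3 MERKO and 3 control, grouped by their titles and genotype labels. The authors deposited raw gene counts for every library in 1 table. STAR 2.5.2b, HTSeq 0.9.1 and DESeq are named with the builds mm10 and GRCm38, per the submitters' processing notes. Whether counting used strand, and how multiply placed reads were treated, is not given in the sources used here, so counts of overlapping or antisense genes are uncertain. Of 78 members, 33 overlap exons of another gene, 3 of them over more than 50% of their exon bases. Symbols matched 48349 of 48795 identifiers. Coordinates, overlaps and principal transcript lengths come from GENCODE M21 (GRCm38), and promoter windows from RefSeq.

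The test was the quasi-likelihood test of edgeR 4.0.16 (R 4.3.3) over all genes, after filterByExpr and TMM scaling, and the model held genotype alone. P-values were adjusted over the 13628 genes tested by Benjamini-Hochberg and called below 0.05. A log2 fold change is MERKO minus control and is given ± SE. DESeq2 1.42.0 and limma-voom (limma 3.58.1) were alternatives, beside other scalings, filters, left-out libraries and a replicate block. The code was tested on simulated data. Members and lists were chosen with earlier results of these data known. Members are named if among the 8 lowest p, the 3 highest or 3 lowest fold changes or the 3 highest or 3 lowest control levels of a subunit, for a known role, or if filtered out. Mrpl14, Mrpl35, Mrpl43, Mrpl46 and Mrps11, the cytosolic ribosomal and respiratory lists and the pairing of gene starts were added after values were seen. No 2 libraries of a group were alike within sampling noise (chi-square over genes, 109.6 or more per degree of freedom).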

Additional observations from a re-analysis of the deposited data

How the results depend on the processing

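The number of members called was 0 in all 16 alternative settings, also at an adjusted p of 0.1. The number of all genes called, 1 with edgeR, was 23 with DESeq2, 93 with no composition factor, 140 with no low-count filter, 7 without replicate 1 of both groups and 0 to 11 when each library was left out. The number of members below 0, 58, ran from 33 (without control 1) to 68 (without MERKO 1). The subunit medians, -0.05 and -0.06, moved by less than the replicate SD of 0.14 (large) and 0.12 (small). This SD is larger than the medians, so moving by less than it does not show that they are stable. The medians turned to 0.01 and 0.03 without control 1. With no composition factor they were -0.16 and -0.17 while the median of all genes was -0.10.

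With the replicate number as a block, 51 genes and 0 members were called, 59 members lay below 0, and the lowest adjusted p of a member was 0.242 in edgeR. The deviations of same-numbered libraries correlated at 0.448, 0.163 and 0.0612 over genes and MERKO 2 correlated better with control 3, so the numbers were not taken to pair the libraries. Over the members alone the same-number correlations were 0.525, 0.164 and 0.211, and MERKO 2 again correlated better with control 3, at 0.428. The summed level of each subunit was lower in MERKO than in the same-numbered control in 3 of 3 numbers. The chi-square per degree of freedom was 59.6 for MERKO 1 with control 1 and 25.7 for MERKO 2 with control 2. Both were lower than for any 2 libraries of a group, as were MERKO 3 with control 2 (44.6) and with control 1 (65.3). This value grows with the number of counts, which was lowest in MERKO 2 and control 2, so it mixes likeness with depth.

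Of 39 named members tested, 23 kept one sign in all settings. With no composition factor the log2 fold change was -0.019 for Mrpl45, -0.11 for Mrps12, -0.014 for Mrps16, -0.097 for Mrps18b, -0.080 for Mrps25 and -0.026 for Mrps34. It was -0.00183 for Mrps12 with DESeq2 and 0.029 for Mrps36 with limma-voom. Without replicate 1 of both groups it was 0.021 for Mrpl17 and 0.067 for Mrps18a. Without replicate 2 of both groups it was 0.057 for Mrpl12, -0.032 for Mrps12, -0.011 for Mrps18b and 0.063 for Mrps36. Leaving out each library in turn gave -0.19 to 0.11 for Mrpl12, -0.073 to 0.048 for Mrpl17, -0.20 to 0.071 for Mrpl19, -0.055 to 0.40 for Mrpl3, -0.063 to 0.21 for Mrpl41, -0.039 to 0.23 for Mrpl45, -0.014 to 0.059 for Mrps12, -0.11 to 0.085 for Mrps18a, -0.028 to 0.082 for Mrps18b, -0.24 to 0.0058 for Mrps18c, -0.17 to 0.030 for Mrps35, -0.18 to 0.10 for Mrps36 and -0.063 to 0.40 for Mrps9. The cause of these shifts was not tested.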
